A study of Mus musculus with 8 samples.

Results

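The pre-B cell receptor genes were followed in RNA-seq data of B cells from the marrow of mice after sham surgery (Sham) or ovariectomy (OVX), with 3 libraries per group. The 6 genes were taken by name from the 54532 genes of the count table and are Igll1, Vpreb1, Vpreb2 and Vpreb3 of the surrogate light chain family, and Cd79a and Cd79b, which encode the signal chains. Each was found under 1 Ensembl identifier, and all 6 had enough reads to be tested. Sham mice had the operation without removal of the ovaries, OVX mice lost both ovaries, and the loss of ovarian estrogen is used here as a model of menopause. The RNA-seq labels name no transgene, drug or strain, and the age of these mice and the time after surgery were not given in the sources used here. The cells were taken from whole marrow with magnetic beads, so pro-B, pre-B and mature B cells could all be present in a library.

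The pre-B cell receptor is the checkpoint at which a developing B cell tests its newly rearranged immunoglobulin heavy chain. Before a light chain exists, λ5 (Igll1) and VpreB (Vpreb1 or Vpreb2) together take its place on the μ heavy chain, and the complex signals through Igα (Cd79a) and Igβ (Cd79b), whose tails carry the tyrosine motifs that recruit the kinase SYK. The surrogate light chain genes are transcribed in pro-B and large pre-B cells and are shut off as cells become small pre-B cells, whereas Cd79a and Cd79b stay on for the life of the B cell. VpreB3 is a relative that binds μ chains inside the cell and is not part of the receptor at the surface.

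Positions are on GRCm38.p6, the patch release of the build mm10 named in the labels. Igll1 lies on chromosome 16 from 16860671 to 16863985, and Vpreb1 from 16868401 to 16869255, 4415 bases away. Vpreb2 lies on the same chromosome from 17979445 to 17981274, 1.11 Mb from Vpreb1. Vpreb3 lies on chromosome 10 from 75943024 to 75949657 and has the pseudogene Gm16221 inside its span. Cd79a lies on chromosome 7 from 24897497 to 24901858, and Cd79b on chromosome 11 from 106311341 to 106314562.

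The start regions of Vpreb1 and Vpreb2 are shown because these genes are near-identical copies whose levels followed patterns that were alike only in part. Their log2 levels had a Pearson's r of 0.78 and a Spearman's rho of 0.43 over the 6 libraries. The RefSeq windows run from 250 bases before a transcript start to 50 bases after it (GRCm38.p6, 5′ to 3′). For Vpreb1, Igll1 and Cd79a that start is the end of the gene span given above, whereas the windows of Vpreb2 and Vpreb3 are set on starts inside the span, at 17980565 and 75948300, which lie 1120 and 5276 bases into it. Here capitals mark bases identical between the pair within the aligned stretch, bases 145 to 300 of Vpreb1 and 1 to 156 of Vpreb2. Lower-case bases inside that stretch differ. Those outside it face no base of the other window in this alignment, so they are not shown to differ. Vpreb1 is at chr16:16869206-16869505 on the minus strand and Vpreb2 at chr16:17980315-17980614 on the plus strand.
Vpreb1: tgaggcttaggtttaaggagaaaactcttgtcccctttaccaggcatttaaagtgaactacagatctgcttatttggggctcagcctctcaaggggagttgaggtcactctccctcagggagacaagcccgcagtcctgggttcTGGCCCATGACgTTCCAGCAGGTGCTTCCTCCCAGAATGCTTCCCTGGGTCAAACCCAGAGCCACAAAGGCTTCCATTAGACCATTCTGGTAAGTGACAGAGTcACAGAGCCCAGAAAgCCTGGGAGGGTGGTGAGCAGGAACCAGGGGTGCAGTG
Vpreb2: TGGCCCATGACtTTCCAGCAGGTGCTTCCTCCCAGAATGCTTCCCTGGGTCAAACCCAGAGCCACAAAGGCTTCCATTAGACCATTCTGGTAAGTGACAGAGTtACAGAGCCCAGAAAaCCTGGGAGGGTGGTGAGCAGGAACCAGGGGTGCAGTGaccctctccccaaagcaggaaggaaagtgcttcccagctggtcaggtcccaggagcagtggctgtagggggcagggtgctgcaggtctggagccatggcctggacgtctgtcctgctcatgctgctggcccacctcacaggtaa
Over 156 aligned bases 153 were identical, which is 98.1%, with 3 differing bases and no gap. The match is offset by 144 bases, so that the base of Vpreb2 that corresponds to the start of Vpreb1 lies that far before the Vpreb2 start used for its window, and inside the Vpreb2 gene span. Because the copies are so alike, reads could have been divided between them or discarded in the authors' counting, and the counts of both are uncertain for that reason.

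The windows of Igll1 and Cd79a are shown with the letters of motifs that bear on B cell transcription and on hypoxia. The motifs searched on both strands were the EBF core CCCNNGGG, the E-box CANNTG and the hypoxia response element cores ACGTG and GCGTG, and capitals mark the matches, none of which overlapped another in this pair of windows. Igll1 is at chr16:16863936-16864235 on the minus strand and Cd79a at chr7:24897247-24897546 on the plus strand.
Igll1: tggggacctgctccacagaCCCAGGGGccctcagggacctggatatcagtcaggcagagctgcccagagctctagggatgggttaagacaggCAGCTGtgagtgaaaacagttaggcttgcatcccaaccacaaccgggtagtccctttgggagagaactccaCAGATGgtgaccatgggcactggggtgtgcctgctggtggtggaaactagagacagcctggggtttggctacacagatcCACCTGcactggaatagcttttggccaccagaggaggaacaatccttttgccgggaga
Cd79a: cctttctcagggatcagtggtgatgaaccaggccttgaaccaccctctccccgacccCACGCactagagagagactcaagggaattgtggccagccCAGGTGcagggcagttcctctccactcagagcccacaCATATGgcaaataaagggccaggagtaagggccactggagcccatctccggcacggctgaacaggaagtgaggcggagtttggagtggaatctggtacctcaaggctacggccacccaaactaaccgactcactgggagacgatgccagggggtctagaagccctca
Igll1 was the only one of the 5 windows matched (Igll1, Vpreb1, Vpreb2, Vpreb3 and Cd79a) with an EBF core, as CCCAGGGG at base -231, and 13.7% of 32817 mouse windows of this length hold one. E-boxes were found in all 5, with 3 in Igll1, 1 in Vpreb1, 2 in Vpreb2, 5 in Vpreb3 and 2 in Cd79a, and 72.3% of all windows hold at least 1. The core ACGTG was in none of the 5, against 19.6% of all windows. GCGTG was only in Cd79a, on its minus strand at base -193, against 32.4% of all windows. The letters TATAAA were in none of the 5, against 13.6% of all windows. These matches are descriptions of sequence and not of binding.

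Between 23838775 and 33136701 reads were counted per library. The labelled cell type was checked against 12 general B cell genes, Pax5 and Ebf1 among them, whose summed level lay between 10484 and 12357 CPM (CPM are read counts divided by library size and scaled with edgeR's TMM factors). The pre-B receptor genes together took 0.349% to 0.453% of the reads. The libraries stood apart in other ways. The 10 neutrophil genes summed to 8843 CPM in Sham replicate 3 and to between 1071 and 3835 CPM in the other libraries, and the 11 mature B cell genes summed to 5864 CPM in Sham replicate 2 and to between 3136 and 3692 CPM elsewhere. In bulk RNA, fewer cells of a stage and less RNA per cell cannot be told apart. The study's captions count mice, as many per group as there are libraries, and the labels do not say which mouse gave which library or whether any were pooled.

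Igll1 (ENSMUSG00000075370), which encodes the λ5 part of the surrogate light chain, gave 6809, 6503 and 4022 reads across Sham replicates 1 to 3 and 5813, 7020 and 10189 across OVX replicates 1 to 3. Its level was 287, 229 and 162 CPM in the Sham libraries and 237, 248 and 308 CPM in the OVX libraries. The lowest value was Sham replicate 3 and the highest OVX replicate 3, and Sham replicate 1 lay inside the OVX range, so that the groups overlapped. It averaged 264 ± 38.6 CPM after ovariectomy and 226 ± 62.8 CPM after sham surgery (SD, n = 3 each). The log2 fold change of OVX over Sham was 0.23 ± 0.21 (SE), with an adjusted p of 0.815 in edgeR's quasi-likelihood test after Benjamini-Hochberg correction over all genes tested. Its 95% interval ran from -0.26 to 0.71. Without Sham replicate 3 the value was 0.03.

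Vpreb1 (ENSMUSG00000059305), the VpreB copy with more reads, followed Igll1 closely. It had 4826, 3930 and 2380 reads in Sham replicates 1 to 3 and 3462, 4416 and 6515 in OVX replicates 1 to 3, which is 204, 138 and 95.6 CPM and 141, 156 and 197 CPM. Sham replicates 1 and 3 were the highest and the lowest of all 6 libraries, with every OVX library between them. It averaged 165 ± 29.1 CPM after ovariectomy and 146 ± 54.3 CPM after sham surgery (SD, n = 3 each). The log2 fold change was 0.17 ± 0.26 (SE), with a 95% interval of -0.44 to 0.79 and an adjusted p of 0.870 in edgeR's test. The sign turned without Sham replicate 3, with -0.06, and the value was 0.49 without Sham replicate 1.

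The proportion of the λ5 and VpreB1 messages varied less over the libraries than the level of either. There were 0.709, 0.604 and 0.592 reads of Vpreb1 per read of Igll1 in Sham replicates 1 to 3 and 0.596, 0.629 and 0.639 in OVX replicates 1 to 3. This ratio of reads, which is not corrected for gene length, varied by a factor of 1.20 over the 6 libraries, while the level of Igll1 varied by a factor of 1.91 and that of Vpreb1 by 2.13. As a description over 6 libraries that share their depth and their mix of cells, the log2 levels of the neighbouring genes had a Pearson's r of 0.98 and a Spearman's rho of 0.94, the highest Pearson's r among the 15 pairs of the 6 genes.

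Vpreb2 (ENSMUSG00000059280), the second VpreB copy, was counted at the lowest depth of the 6 genes. It had 557, 689 and 344 reads in the Sham libraries and 455, 529 and 721 in the OVX libraries, at 23.5, 24.2 and 13.8 CPM and at 18.5, 18.7 and 21.8 CPM. The OVX libraries lay inside the wider Sham range, with Sham replicate 2 highest and Sham replicate 3 lowest. It averaged 19.7 ± 1.86 CPM after ovariectomy and 20.5 ± 5.81 CPM after sham surgery (SD, n = 3 each). The log2 fold change was -0.06 ± 0.22 (SE), with a 95% interval of -0.57 to 0.45 and an adjusted p of 0.946 in edgeR's test. The sign turned without Sham replicate 1 (0.04) and without Sham replicate 2 (0.07).

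The share of Vpreb2 among the reads of both VpreB copies differed between some libraries by more than binomial counting of independent reads would give. It was 10.3%, 14.9% and 12.6% in Sham replicates 1 to 3 and 11.6%, 10.7% and 9.96% in OVX replicates 1 to 3. The exact binomial 95% interval was 13.9% to 16.0% in Sham replicate 2, and the intervals of Sham replicate 1 and of the 3 OVX libraries all lay below it. Intervals here cover counting error only and treat reads as independent. Reads without molecular identifiers are not independent molecules, so the intervals may be too narrow. The unknown split of shared reads between the copies also bears on this share. By group the share was 12.6% ± 2.28 for Sham and 10.8% ± 0.828 for OVX (SD, n = 3 each), and the groups overlapped.

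**Figure D1:**
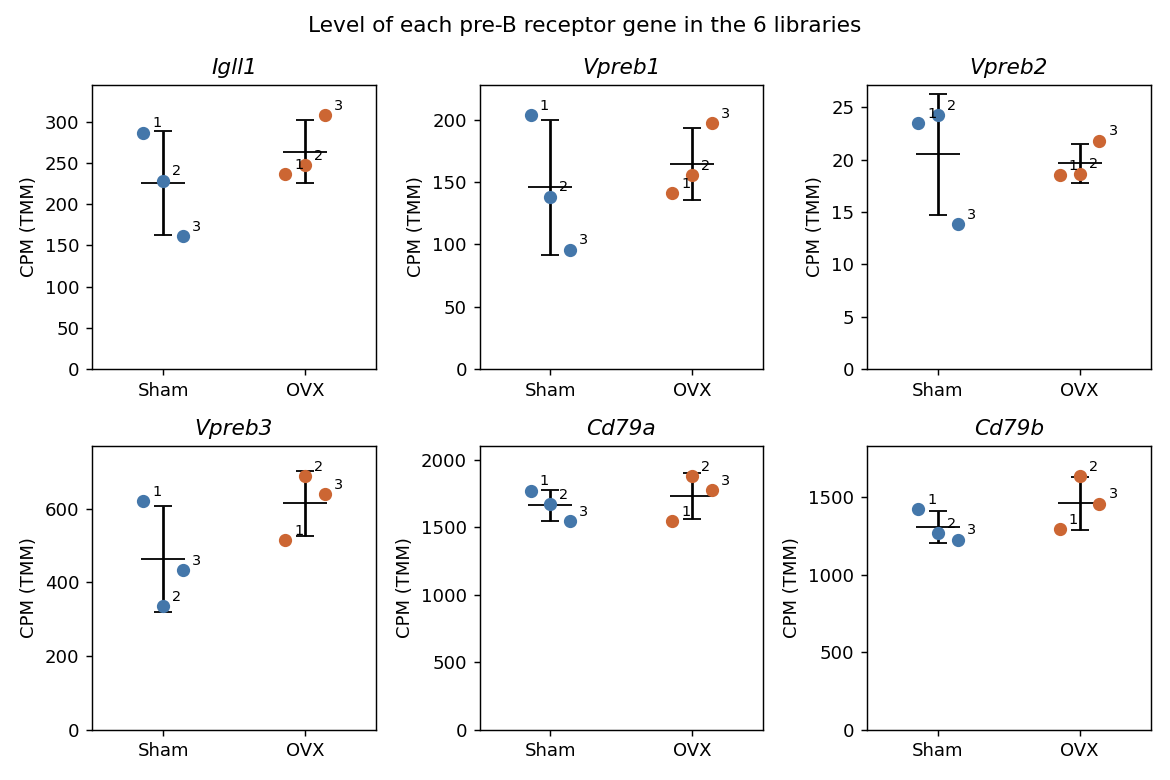
Level of Igll1, Vpreb1, Vpreb2, Vpreb3, Cd79a and Cd79b in CPM with TMM factors (linear axes from 0). Points are libraries with their replicate number, bars are the mean ± SD of 3 libraries per group, and for all 6 genes the Sham and OVX points overlap.

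Vpreb3 (ENSMUSG00000000903), the μ-chain binding relative inside the cell, had the largest log2 fold change of the 6 genes. It had 14733, 9557 and 10780 reads in Sham replicates 1 to 3 and 12673, 19540 and 21156 in OVX replicates 1 to 3. The level was 621, 336 and 433 CPM in Sham and 516, 689 and 640 CPM in OVX. The low values were Sham replicates 2 and 3, while Sham replicate 1 lay among the OVX libraries, above OVX replicate 1. It averaged 615 ± 89.4 CPM after ovariectomy and 464 ± 145 CPM after sham surgery (SD, n = 3 each). The log2 fold change was 0.41 ± 0.22 (SE), with an adjusted p of 0.811 in edgeR's test. The 95% interval ran from -0.11 to 0.93, so that neither no change nor a fold of 1.6 lay outside it. The two-sided exact permutation test gave p = 0.2, and 0.1 is the smallest p that groups of 3 can reach. The value was 0.22 without Sham replicate 2 and 0.67 without Sham replicate 1, where the adjusted p was 0.273 in edgeR's test. Beside Cd79a in the same library, Vpreb3 had 0.350, 0.201 and 0.280 reads per Cd79a read across Sham replicates 1 to 3 and 0.333, 0.366 and 0.361 across OVX replicates 1 to 3. These ratios overlapped too, through Sham replicate 1.

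Cd79a (ENSMUSG00000003379), which encodes Igα, was the steadiest of the genes. Its counts were 42049, 47500 and 38488 in Sham and 38042, 53343 and 58684 in OVX, at 1773, 1671 and 1547 CPM and at 1548, 1881 and 1775 CPM. Both groups ran from near 1547 CPM upwards and overlapped over most of their range. It averaged 1735 ± 170 CPM after ovariectomy and 1664 ± 114 CPM after sham surgery (SD, n = 3 each). The log2 fold change was 0.06 ± 0.10 (SE), with a 95% interval of -0.18 to 0.30 and an adjusted p of 0.884 in edgeR's test. The sign turned without OVX replicate 2 (-0.0016) and with scaling on the general B cell genes (-0.03).

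Cd79b (ENSMUSG00000040592), which encodes Igβ, had 33746, 36073 and 30517 reads in Sham and 31788, 46416 and 48187 in OVX. The level was 1423, 1269 and 1226 CPM in Sham and 1293, 1637 and 1457 CPM in OVX. OVX replicate 2 was the highest library and Sham replicate 3 the lowest, and OVX replicate 1 lay below Sham replicate 1. It averaged 1462 ± 172 CPM after ovariectomy and 1306 ± 104 CPM after sham surgery (SD, n = 3 each). The log2 fold change was 0.16 ± 0.11 (SE), with a 95% interval of -0.10 to 0.42 and an adjusted p of 0.811 in edgeR's test.

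The proportion of the signal chain messages, which needs no scaling between libraries, did not overlap between the groups. Reads of Cd79b per read of Cd79a were 0.803, 0.759 and 0.793 in Sham replicates 1 to 3 and 0.836, 0.870 and 0.821 in OVX replicates 1 to 3. The ratio averaged 0.842 ± 0.0252 for OVX and 0.785 ± 0.0226 for Sham (SD, n = 3 each). Of all tested genes set over Cd79a in the same way 5.33% did not overlap in either direction and 2.35% lay above Sham in every OVX library. Of the 15 pairs of the 6 genes, 2 had ratios without overlap, and the other was Vpreb2 over Igll1. Reads of Vpreb2 per read of Igll1 were 0.0818, 0.106 and 0.0855 in Sham and 0.0783, 0.0754 and 0.0708 in OVX. Every OVX library lay below every Sham library, by a narrow margin between OVX replicate 1 and Sham replicate 1. Those libraries had 455 and 557 Vpreb2 reads. Counting error of Vpreb2 was at most 5.39% of the count in a single library, and the separation was not tested against it. Set over Igll1 in the same way, 2.91% of all tested genes did not overlap in either direction and 2.64% lay below Sham in every OVX library, and the split of reads between the VpreB copies bears on this ratio. The ratio of the surrogate light chain (Igll1, Vpreb1 and Vpreb2 summed) to the signal chains (Cd79a and Cd79b summed) was 0.161, 0.133 and 0.0978 in Sham and 0.139, 0.1199 and 0.163 in OVX, and here the groups overlapped. Sham replicate 3 had the lowest ratio, and the cause was not tested. The log2 of the OVX mean over the Sham mean of this ratio was 0.11, and it was -0.06 without Sham replicate 3, -0.01 without OVX replicate 3, 0.21 without OVX replicate 2 and 0.29 without Sham replicate 1.

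**Figure D2:**
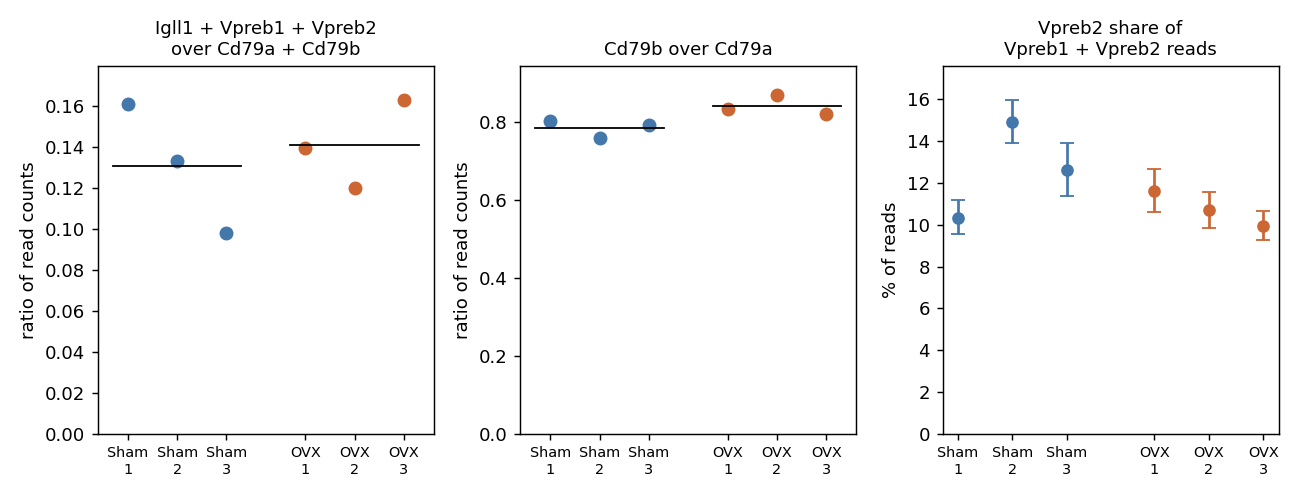
Ratios of read counts within a library (left and middle panels, black lines at the group means) and the share of Vpreb2 among VpreB reads in percent with exact binomial 95% intervals (right panel), for the 3 Sham and 3 OVX libraries. Reads of Cd79b per read of Cd79a were 0.759 to 0.803 in Sham and 0.821 to 0.870 in OVX, while both other measures overlap between the groups.

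Over the 6 genes, 5 had a positive and 1, Vpreb2, a negative log2 fold change, with a median of 0.17. Over all 15305 genes tested 48.2% were positive, 51.8% were negative and the median was -0.0081. The count was 6 of 6 positive without Sham replicate 1 or Sham replicate 2 and 4 of 6 without Sham replicate 3, without OVX replicate 2, or with scaling on the general B cell genes. A call needed a fold of at least 1.6 beside an adjusted p under 0.05, and edgeR called 0 of the 6 genes and 0% of all genes tested. DESeq2 and limma-voom called 0 genes as well. At an unadjusted p-value under 0.05 edgeR had 574 genes, or 3.75% (1.47% higher and 2.28% lower in OVX), DESeq2 755 and limma-voom 594, and in edgeR none of the 6 was among them. Vpreb3 had an unadjusted p of 0.0442 in DESeq2, with an adjusted p of 0.997. In edgeR it had an unadjusted p of 0.0359 without the filter on low counts and 0.00493 without Sham replicate 1, where that of Vpreb1 was 0.0487, with adjusted p of 0.801, 0.273 and 0.296. The Sham and OVX libraries overlapped in level for all 6 genes, while 8.44% of all genes tested did not overlap, 4.33% with OVX above and 4.12% with OVX below. The two-sided exact permutation test over libraries gave p between 0.2 and 1 for the 6 genes.

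**Figure D3:**
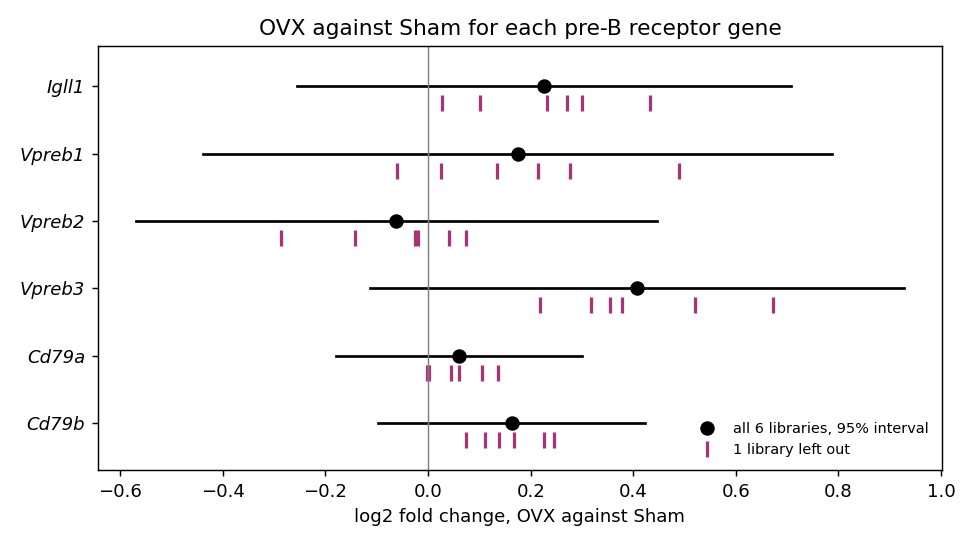
Log2 fold change of OVX against Sham for each of the 6 genes, with the 95% interval of edgeR's quasi-likelihood fit (black point and line) and the values with 1 library left out (short vertical marks). All 6 intervals include 0, and the value of Vpreb3 runs from 0.22 to 0.67 when a library is left out.

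Counting error was small beside the spread between libraries. The counting error of a single library was at most 5.39% of the count for Vpreb2 and at most 2.05% for the other 5 genes. The coefficient of variation of the level over the 6 libraries was 26.0% for Vpreb1, 25.2% for Vpreb3, 20.9% for Igll1, 19.4% for Vpreb2, 11.1% for Cd79b and 7.95% for Cd79a. All 4 genes of the surrogate light chain family varied more than both signal chain genes.

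The libraries that set this spread were not the same for all genes. Igll1, Vpreb1, Vpreb2 and Cd79b were lowest in Sham replicate 3, where 13.8% of all genes tested had their lowest level. Cd79a was near equal in Sham replicate 3 and OVX replicate 1, at 1547 and 1548 CPM. As a share of reads, uncorrected by TMM factors, it was 0.1553% and 0.1551% in these libraries. Vpreb3 was lowest in Sham replicate 2, where 28.8% of all genes did. Vpreb2 was highest in that same library. The genes that mark early stages were divided. Of 8 pro-B genes, 3 (Dntt, Erg and Lef1) were lowest in Sham replicate 3, as Igll1 and Vpreb1 were, 3 (Kit, Flt3 and Spn) were highest in that library, and 4 (Kit, Cd93, Spn and Sox4) were lowest in Sham replicate 2. All 6 pre-B genes were lowest in Sham replicate 2, as Vpreb3 was. Dntt, which adds nucleotides to heavy chain joints in pro-B cells, was 345, 162 and 118 CPM in Sham and 203, 299 and 365 CPM in OVX. Rag1, the recombinase subunit, was 1349, 580 and 974 CPM in Sham and 1073, 1514 and 1451 CPM in OVX. Sham replicate 3 was the library with the most neutrophil reads, 0.888% against 0.105% to 0.384% elsewhere, with all 10 marker genes at their highest, S100a9 leading at 2485 CPM. Sham replicate 2 held the most mature B cell reads and, with 1018 CPM over 6 genes, the most plasma cell reads. The part of these other cells in the levels of the pre-B receptor genes was not tested. Plasmacytoid dendritic cells, which share some lymphoid genes with early B cells, were represented by 6 marker genes that summed to between 18.3 and 51.0 CPM, with Siglech at 0.917 to 14.8 CPM.

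**Figure D4:**
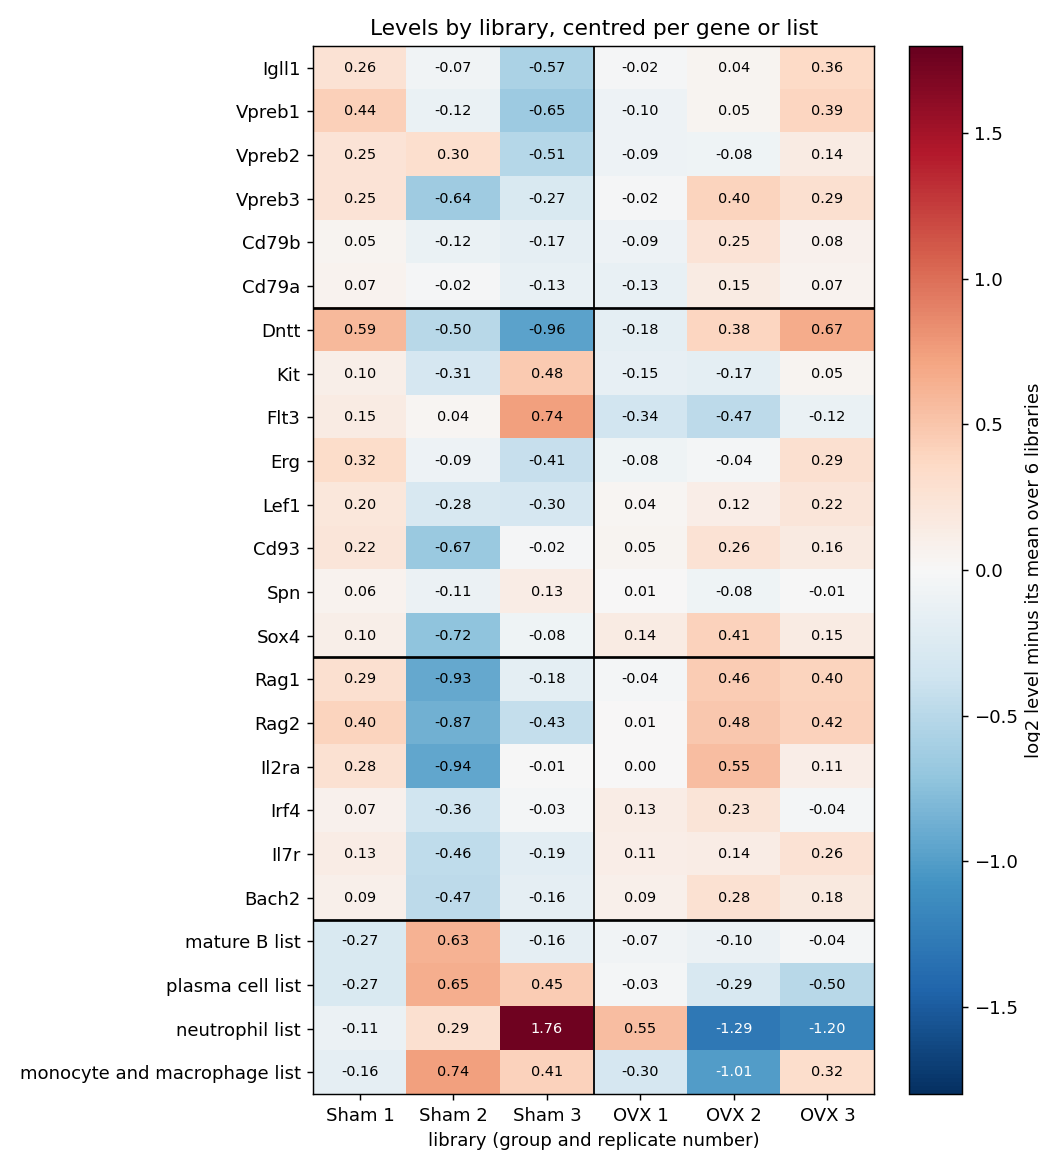
Log2 level in each library minus the mean over the 6 libraries, for, from the top block down, the pre-B receptor genes, the 8 pro-B genes, the 6 pre-B genes and 4 summed marker lists, with red above and blue below that mean. Igll1 and Vpreb1 are lowest in Sham replicate 3, where 3 pro-B genes are also lowest and 3 are highest, and Vpreb3 and all 6 pre-B genes are lowest in Sham replicate 2.

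The pathway around the receptor was read from lists of named genes. Ighm, the μ heavy chain itself, had 6549, 5870 and 6329 CPM in Sham and 6142, 7108 and 6601 CPM in OVX, and its log2 fold change was 0.08 ± 0.10 (SE). Its reads also come from membrane and secreted IgM of later stages. None of 15 kinases, adaptors and effectors was called, 10 were positive and 5 negative, and the median was 0.05. Their summed level was 6854 to 7087 CPM in Sham and 7149 to 7616 CPM in OVX without overlap, the 1 list of 16 for which this was so, although for none of the 15 genes alone were the groups apart. Of this list, Pik3ap1, the adaptor BCAP, had a log2 fold change of 0.28 ± 0.15 (SE), Blnk, the scaffold downstream of SYK, 0.19 ± 0.11 (SE), and Pik3r1, a regulatory subunit of PI3-kinase, 0.13 ± 0.07 (SE).

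Of 8 inhibitory receptors and phosphatases, 3 were positive and 5 negative, with a median of -0.08 and none called. For Pirb the log2 fold change was -0.57 ± 0.26 (SE) and for Lair1 -0.69 ± 0.37 (SE), and both are also made by myeloid cells. Cd72, a coreceptor that dampens the signal, had 0.18 ± 0.15 (SE).

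Of 13 genes downstream of the pre-B receptor, 9 were positive and 4 negative, with a median of 0.20 and none called. Bach2, which acts at the pre-B receptor checkpoint, was 775, 525 and 651 CPM in Sham and 775, 886 and 827 CPM in OVX. Its OVX libraries all lay above its Sham libraries, by a narrow margin between OVX replicate 1 and Sham replicate 1. No other of the 13 did so, while 4.33% of all genes tested did. The log2 fold change of Bach2 was 0.35 ± 0.14 (SE; adjusted p = 0.811 in edgeR's test). Il7r, the receptor subunit for interleukin 7, had 0.33 ± 0.14 (SE) and Foxo1, a transcription factor that maintains Rag gene transcription, had 0.21 ± 0.10 (SE), both with overlapping groups.

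Of the 10 transcription factors of the surrogate light chain and Cd79a genes, 9 were positive and 1, Ets1, negative, with a median of 0.20 and none called. Ebf1, the factor whose core motif stands in the Igll1 window above, was 520, 382 and 454 CPM in Sham and 550, 588 and 595 CPM in OVX. For Ebf1, as for 4.33% of all genes tested and for no other of the 10, all OVX values were higher than all Sham values. Its log2 fold change was 0.35 ± 0.12 (SE; adjusted p = 0.811 and unadjusted p = 0.0181 in edgeR's test). Tcf3, which encodes the E-box binding E2A proteins, had 0.30 ± 0.16 (SE) with overlapping groups. Without Sham replicate 2 the median was 0.09 for the transcription factors, 0.08 for the downstream genes and 0.02 for the inhibitory list. Ikzf1 and Foxo1 stand in more than 1 of these lists, Syk, Blnk, Pax5, Ebf1, Bach2 and other pathway genes are also counted as B cell markers, and Lair1 is also among the plasmacytoid dendritic cell markers.

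The stage and other cell lists had their highest sums in different libraries. All 6 pre-B genes were positive (median 0.37), as were all 8 cell cycle genes (median 0.13) and 5 of 8 pro-B genes (median 0.17), while 7 of 11 mature B genes were negative (median -0.34) and none of these was called. Without Sham replicate 2 the median of the mature B list was 0.14, of the cell cycle list -0.03 and of the pre-B list 0.20. All 10 neutrophil genes (median -1.26), all 10 monocyte and macrophage genes (median -0.36) and all 8 erythroid genes (median -0.74) were negative. So were all 6 plasmacytoid dendritic cell genes (median -0.94), 7 of 8 T and NK cell genes (median -1.27) and 4 of 6 plasma cell genes (median -0.56). None of these genes was called. The T and NK cell genes had few reads, with a list sum between 15.0 and 45.5 CPM per library. With 1 library left out at a time, the median ran from -2.15 to -0.51 for neutrophils (highest without Sham replicate 3), from -2.09 to -0.60 for T and NK cells (highest without Sham replicate 3) and from -1.10 to 0.16 for monocytes and macrophages (highest without Sham replicate 2). It ran from -0.94 to -0.37 for erythroid and from -0.76 to -0.36 for plasma cell genes, both highest without Sham replicate 2, and from -1.28 to -0.66 for plasmacytoid dendritic cell genes. Of the 12 general B cell genes 9 were positive, with a median of 0.09. Among the 6 pre-B receptor genes the larger log2 fold changes were those of Vpreb3, Igll1 and Vpreb1. Stage genes had values on both sides of these. Rag1 had 0.48 ± 0.29 (SE) and Dntt, the highest of the 8 pro-B genes, 0.47 ± 0.40 (SE). The other way, 3 of the 8 pro-B genes were negative, down to -0.64 for Flt3.

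Genes with the most similar pattern over the 6 libraries were sought by Pearson's r of log2 CPM among 10376 other genes with a mean of at least 5 CPM. For Igll1 the nearest were Acp6 (0.99), Ccdc69, Ilvbl, Ebp and Arhgap12 (0.98 for the last). For Vpreb1 they were Rybp (0.99), Ei24, Erg, Ebp and Cd209f (0.99 for the last), and Erg is a transcription factor of early progenitors. Ebp, an enzyme of sterol synthesis, was on both lists. For Vpreb2 they were Stk25 (0.96), Crlf3, Xlr4b, 1600020E01Rik and Slc41a1 (0.96 for the last). For Vpreb3 they were Mindy2, Zfr, Susd1, Tnfaip8 and Eloa, all at 1.00 when rounded. For Cd79a they were Ahsa2 (0.98), Rap1a, Gmfb and Rpl35 (0.97 for the last), and for Cd79b Tspyl1 (1.00), F8a, Rnh1, Ammecr1l and Cul5 (0.99 for the last). A pattern over 6 libraries is easily matched: 532 genes reached an r of 0.95 with Vpreb3, 74 with Cd79b, 40 with Vpreb1, 29 with Igll1, 21 with Cd79a and 9 with Vpreb2.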

How the data were processed

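For the RNA-seq libraries, the authors deposited a table of unnormalized read counts by Ensembl identifier. Per the labels, cells were sorted by MACS, libraries were made with an Illumina TruSeq kit, and the submitters' processing notes name CASAVA, Bowtie 0.12.2 and mm10. The counting tool, annotation and strand setting were not given in the sources used here, so how reads shared by copies or by overlapping genes were treated is unknown. ChIP-seq samples were not analysed here.

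Condition and replicate were taken from the sample titles. Symbols were matched to 54409 of 54532 identifiers. Every pair of libraries differed by more than sampling noise. Tests were made with edgeR 4.0.16 under R 4.3.3, using filterByExpr (15305 genes kept), TMM and the quasi-likelihood test, without a block. Calls needed a fold of at least 1.6 and a Benjamini-Hochberg adjusted p under 0.05. Standard errors are the log2 fold change over the square root of F, and intervals use the test's degrees of freedom. DESeq2 1.42.0 and limma 3.58.1 were alternatives, beside other scalings and filters, each library left out, and the replicate number as a block. The test was tried on simulated counts. Promoter windows and gene positions are from RefSeq (GRCm38.p6), with windows for 5 of the 6 genes, and were aligned with Biopython 1.88. Levels were not compared between genes, as no transcript lengths were used.

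The genes and lists were chosen with earlier results of these data known. The text names the 6 genes, of each pathway list the 3 with the lowest p, the 5 nearest in pattern to each gene with a mean of at least 5 CPM (1 of those nearest to Cd79a is not reported here), and of marker lists the sums. Dntt, Rag1, Rag2, Siglech, S100a9, Ets1 and Ikzf1 were named after their values were seen, as were Kit, Flt3, Spn, Erg, Lef1, Cd93 and Sox4, and the ratios of all pairs of the 6 genes were added then.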

Additional observations from a re-analysis of the deposited data

How the results depend on the processing

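In 15 alternatives per gene none of the 6 genes was called, and 5 of 90 values had the opposite sign: Cd79a with scaling on the general B cell genes (-0.031) and, when a library was left out, Vpreb1 (-0.061 to 0.49), Vpreb2 (-0.29 to 0.073) and Cd79a (-0.0016 to 0.14). Igll1, Vpreb3 and Cd79b stayed above 0 in all 15, from 0.03 to 0.43, 0.22 to 0.67 and 0.07 to 0.25. Over all genes 0 were called in each of the 16 alternatives, with a lowest adjusted p-value of 0.273 without Sham replicate 1, and the genes at an unadjusted p-value under 0.05 were 2698 there, 233 without OVX replicate 2, 1269 without the filter and 206 with the replicate block, against 574. Of 240 values of list medians 236 moved by less than the spread between replicates. The others were the kinase list (-0.041) and the general B cell list (-0.0029) with scaling on the general B cell genes, the pro-B list (0.055 to 0.36 with a library left out) and the mature B list (-0.57 to 0.14). The scaling on B cell genes moved the median of all genes to -0.10, and 28.5% of all genes were then positive. The ratio of surrogate light chain to signal chains stayed within its spread with Igll1 over Cd79a (0.18) or Vpreb1 over Cd79a (0.14). Of the 30 places among the nearest patterns 1 was kept with Spearman's rho and 14 with library size only. The causes were not tested.

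Libraries sharing a replicate number did not deviate together: across genes, their deviations correlated at -0.41, -0.19 and -0.28. The titles give only a replicate number and do not say whether it stands for a pairing. These correlations also carry the mix of cells in each library, so they cannot decide it. In the fit with the replicate block, the log2 fold change was 0.44 for Vpreb3, 0.25 for Igll1, 0.23 for Vpreb1, -0.03 for Vpreb2, 0.06 for Cd79a and 0.16 for Cd79b, with 0 genes called.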
